A study of Mus musculus with 16 samples.

Results

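Inorganic phosphate (Pi) enters vascular cells through the sodium-dependent importers PiT-1 and PiT-2, encoded by Slc20a1 and Slc20a2, and leaves them through the exporter encoded by Xpr1. Body-wide control of Pi rests on the bone hormone FGF23, which signals through FGF receptors such as the one encoded by Fgfr1 when the coreceptor klotho is present, and on active vitamin D, which acts through the nuclear receptor encoded by Vdr. PiT-1 is known for its part in the mineralization of smooth muscle cells exposed to high Pi, and loss of PiT-2 or of the exporter is a known cause of brain calcification. These 5 genes were taken from the deposited tables by gene symbol, out of 54532 annotated genes, and their mRNA levels were followed in the aortas of 16 mice.

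The mice were male C57BL/6J, 12 weeks old at the first operation, in 4 groups of 4 separate animals, with 1 whole aorta per library. The Sham group had sham surgery and was fed the HPi-Lp diet (2% phosphorus with 2.5% protein). The other 3 groups had a 5/6 nephrectomy (5/6 Nx), in which the poles of the left kidney were ligated and the right kidney was removed 1 week later, a model of CKD. The 5/6 Nx-HPi-Lp group ate the same diet as Sham, 5/6 Nx-HPi-Hp ate 2% phosphorus with 18% protein, and 5/6 Nx-LPi-Lp ate 0.3% phosphorus with 2.5% protein. Diets were given for 30 days. The 5/6 Nx-HPi-Lp mice differ from Sham in surgery alone, from 5/6 Nx-HPi-Hp in dietary protein, and from 5/6 Nx-LPi-Lp in dietary phosphorus. Of the remaining contrasts, 5/6 Nx-LPi-Lp and 5/6 Nx-HPi-Hp each differ from Sham in both surgery and diet, so these cannot be told apart there.

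Poly(A) RNA was sequenced, and libraries held 13659525 to 57276915 counts on genes. The deepest were 5/6 Nx-HPi-Lp replicates 2 and 3, with 57276915 and 46499243 counts, and the other 2 libraries of that group held 15665005 and 15013203. Counts on mitochondrially encoded genes made up 4.18% to 6.34% of Sham libraries, 19.3% to 27.1% of 5/6 Nx-HPi-Lp, 9.50% to 29.0% of 5/6 Nx-HPi-Hp and 14.2% to 21.1% of 5/6 Nx-LPi-Lp. The 7 smooth muscle markers checked, Acta2, Myh11, Tagln, Cnn1, Lmod1, Smtn and Myocd, were above 0 in all 16 libraries. Levels are given below as FPKM (fragments per kilobase of exon, scaled for library depth), which can be set side by side between genes. Differences between groups are log2 fold changes from edgeR's quasi-likelihood test on counts, with Benjamini-Hochberg adjusted p-values over all genes tested, and "passed" means an adjusted p of at most 0.05. Since these are bulk samples, fewer cells of a type and less RNA per cell cannot be told apart.

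Slc20a1 (ENSMUSG00000027397) lies on the plus strand at chr2:129198764-129211616 of mm10. Slc20a2 (ENSMUSG00000037656) lies on the plus strand of chromosome 8 from 22476788 to 22569612, and Fgfr1 (ENSMUSG00000031565) lies further along the same strand from 25513654 to 25575718. Xpr1 (ENSMUSG00000026469) lies on the minus strand at chr1:155275701-155417415, and Vdr (ENSMUSG00000022479) on the minus strand at chr15:97854425-97910630. Exon bases shared with an opposite-strand gene made up 8.10% of the exon length of Slc20a1 for 9830144P21Rik and 5.02% for Gm4430, 1.53% of Slc20a2 for Smim19 and 1.66% of Fgfr1 for Gm16159. The strand setting of the counting is not given in the sources used here, so reads in those bases cannot be assigned to one gene. Smim19 averaged 621 counts per library, and 9830144P21Rik, Gm4430 and Gm16159 averaged 25.2, 65.2 and 2.69. No other annotated gene shares exon bases with Xpr1 or Vdr.

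Slc20a1, Xpr1 and Vdr are the 3 members with an entry in the promoter table. The bases before a RefSeq start of each are shown so that the genes can be set beside each other as sequence. Each is written 5′ to 3′ on the gene's own strand from GRCm38.p6, for positions chr2:129198523-129198763 (241 bases), chr1:155417445-155417694 (250 bases) and chr15:97908311-97908546 (236 bases). Capitals mark matches on either strand to GGGCGG (GC box), CACGTG (E-box), AGGTCA (a nuclear receptor half-site), TGANTCA (AP-1 site) or CCAAT.
Slc20a1: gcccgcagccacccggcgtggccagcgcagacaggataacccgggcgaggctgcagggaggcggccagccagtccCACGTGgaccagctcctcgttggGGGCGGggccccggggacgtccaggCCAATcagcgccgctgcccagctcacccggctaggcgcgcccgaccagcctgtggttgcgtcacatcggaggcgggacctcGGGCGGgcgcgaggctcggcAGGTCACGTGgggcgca
Xpr1: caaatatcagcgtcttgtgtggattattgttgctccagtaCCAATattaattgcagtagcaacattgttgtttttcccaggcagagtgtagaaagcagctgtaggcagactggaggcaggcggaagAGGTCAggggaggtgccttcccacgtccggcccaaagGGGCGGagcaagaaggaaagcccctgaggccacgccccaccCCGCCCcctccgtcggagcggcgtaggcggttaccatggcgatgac
Vdr: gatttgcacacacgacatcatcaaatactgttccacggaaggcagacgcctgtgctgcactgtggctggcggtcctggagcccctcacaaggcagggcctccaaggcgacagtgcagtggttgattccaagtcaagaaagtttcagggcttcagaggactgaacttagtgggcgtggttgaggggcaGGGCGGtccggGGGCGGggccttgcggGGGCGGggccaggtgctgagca
The Slc20a1 stretch had a GC content of 75.5% and held 2 GC boxes, 2 E-boxes, 1 half-site that overlaps the second E-box, and 1 CCAAT box. A second Slc20a1 entry, at chr2:129206846-129207095, is not shown. It had a GC content of 50.8%, with 1 GC box, 1 half-site and no E-box or CCAAT box. The Xpr1 stretch, with a GC content of 57.6%, held 2 GC boxes, 1 half-site and 1 CCAAT box. The Vdr stretch, with a GC content of 61.9%, held 3 GC boxes and no match to the other 4 motifs. In the 250 bases before the start of all 32851 promoters in the table, 32.7% held a GC box, 6.0% an E-box, 14% the half-site, 6.7% the AP-1 site and 33.8% CCAAT. The letters searched were chosen with these sequences in view, and a match describes the sequence and does not mark a bound site. Slc20a2 and Fgfr1 are named only.

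The 5 genes covered a wide range of levels in aorta. In Sham, Fgfr1 averaged 29.3 ± 1.48 FPKM (SD, n = 4), higher than 94.3% of the 28323 genes with a mean above 0. Slc20a2 followed at 17.2 ± 1.45, Xpr1 at 7.42 ± 0.384 and Slc20a1 at 5.78 ± 0.959 FPKM, and Vdr came last at 0.113 ± 0.0330 FPKM. Xpr1 and Slc20a1 were neighbours in that order and their mouse values overlapped, whereas the other neighbours were separated in every Sham mouse. In 5/6 Nx-HPi-Lp the order was Fgfr1 at 24.6 ± 0.674, Slc20a1 at 12.2 ± 1.88, Slc20a2 at 7.47 ± 0.774, Xpr1 at 2.83 ± 0.240 and Vdr at 0.934 ± 0.467 FPKM. No 2 neighbours in this order overlapped. Slc20a1 and Slc20a2 had thus changed places, and Slc20a1 stood above Slc20a2 in each of the 4 mice.

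**Figure D1:**
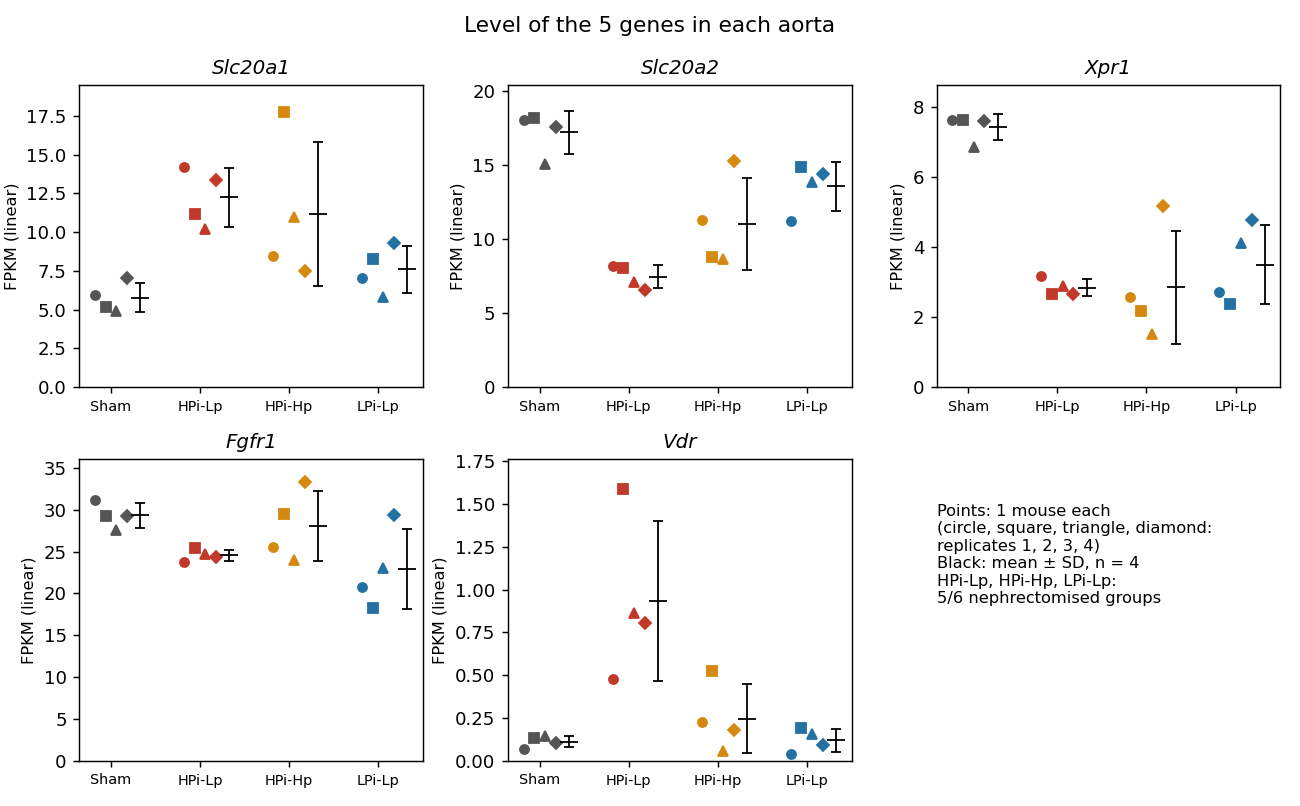
FPKM of the 5 genes (linear y axis from 0) in each aorta of the 4 groups on the x axis, with points for mice and black bars for the mean ± SD of 4. Slc20a1 and Vdr sit higher and Slc20a2 and Xpr1 lower in 5/6 Nx-HPi-Lp than in every Sham aorta, while 5/6 Nx-HPi-Hp has 1 aorta near Sham for Xpr1 and Slc20a2.

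The importer Slc20a1 was higher in 5/6 Nx-HPi-Lp aortas than in Sham. Its level in the 4 Sham mice was 5.95, 5.17, 4.93 and 7.06 FPKM, against 14.2, 11.2, 10.2 and 13.4 FPKM in 5/6 Nx-HPi-Lp. The groups did not overlap, and the lowest 5/6 Nx-HPi-Lp aorta stood clear of the highest Sham aorta. The log2 fold change was 1.05 (SE 0.153, 95% interval 0.71 to 1.39, edgeR adjusted p = 0.000526), or 2.07-fold. In 5/6 Nx-HPi-Hp the values were 8.45, 17.8, 10.98 and 7.47 FPKM, spread to both sides of the 5/6 Nx-HPi-Lp values, with replicate 2 the highest of all 16 aortas. In 5/6 Nx-LPi-Lp they were 7.07, 8.24, 5.81 and 9.33 FPKM, which overlapped Sham and lay below every 5/6 Nx-HPi-Lp value. By mean level the order was 5/6 Nx-HPi-Lp (12.2), 5/6 Nx-HPi-Hp (11.2), 5/6 Nx-LPi-Lp (7.61) and Sham (5.78). No 2 neighbouring groups in this order differed past the threshold.

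The importer Slc20a2 moved the other way. Sham aortas held 18.0, 18.2, 15.1 and 17.5 FPKM and 5/6 Nx-HPi-Lp aortas 8.21, 8.01, 7.07 and 6.57 FPKM. Every 5/6 Nx-HPi-Lp value was below every other value in the series. The log2 fold change against Sham was -1.23 (SE 0.109, 95% interval -1.48 to -0.99, edgeR adjusted p = 4.57e-05), which leaves 0.425 of the Sham level. The 5/6 Nx-HPi-Hp aortas held 11.3, 8.75, 8.64 and 15.3 FPKM, with replicate 4 inside the Sham range, and the 5/6 Nx-LPi-Lp aortas held 11.2, 14.9, 13.8 and 14.4 FPKM, all below the lowest Sham aorta. The order by mean was Sham (17.2), 5/6 Nx-LPi-Lp (13.6), 5/6 Nx-HPi-Hp (10.98) and 5/6 Nx-HPi-Lp (7.47), again with no difference between neighbouring groups past the threshold.

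The exporter Xpr1 was lower in all 3 nephrectomized groups than in Sham. Its level was 7.63, 7.60, 6.84 and 7.60 FPKM in Sham and 3.15, 2.65, 2.87 and 2.65 FPKM in 5/6 Nx-HPi-Lp. It was 2.56, 2.17, 1.5 and 5.16 FPKM in 5/6 Nx-HPi-Hp, and 2.72, 2.37, 4.11 and 4.77 FPKM in 5/6 Nx-LPi-Lp. No aorta from a nephrectomized mouse reached the lowest Sham value, and the 3 nephrectomized groups overlapped one another, with the widest spread in 5/6 Nx-HPi-Hp. The log2 fold change against Sham was -1.42 (SE 0.0984, edgeR adjusted p = 1.66e-05) for 5/6 Nx-HPi-Lp. It was -1.38 (SE 0.320, edgeR adjusted p = 0.014) for 5/6 Nx-HPi-Hp and -1.07 (SE 0.206, edgeR adjusted p = 0.0054) for 5/6 Nx-LPi-Lp. These comparisons share the Sham aortas. The order by mean was Sham (7.42), 5/6 Nx-LPi-Lp (3.49), 5/6 Nx-HPi-Hp (2.85) and 5/6 Nx-HPi-Lp (2.83), and Sham alone was separated from its neighbour.

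Fgfr1, the most abundant of the 5, had the smallest difference of the 5 between 5/6 Nx-HPi-Lp and Sham. Sham aortas held 31.2, 29.3, 27.6 and 29.3 FPKM and 5/6 Nx-HPi-Lp aortas 23.8, 25.4, 24.7 and 24.4 FPKM. The 2 groups did not overlap, but the drop was small, with a log2 fold change of -0.29 (SE 0.0890, 95% interval -0.49 to -0.087, edgeR adjusted p = 0.0261). This call was lost in one fit of all 16 libraries (adjusted p = 0.2) and when Sham replicate 1 or 5/6 Nx-HPi-Lp replicate 1, 3 or 4 was left out (adjusted p = 0.0674, 0.0552, 0.0515 and 0.0653). The 5/6 Nx-HPi-Hp aortas held 25.5, 29.5, 24.0 and 33.3 FPKM and the 5/6 Nx-LPi-Lp aortas 20.8, 18.3, 23.0 and 29.4 FPKM, both reaching into the Sham range. The order by mean was Sham (29.3), 5/6 Nx-HPi-Hp (28.1), 5/6 Nx-HPi-Lp (24.6) and 5/6 Nx-LPi-Lp (22.9), and no neighbours differed past the threshold.

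Vdr was near the floor of detection outside 5/6 Nx-HPi-Lp. Sham libraries held 11, 18, 19 and 15 counts on Vdr (0.0715, 0.133, 0.145 and 0.102 FPKM), 5/6 Nx-HPi-Hp 24, 35, 4 and 19 counts (0.227, 0.526, 0.0552 and 0.178 FPKM) and 5/6 Nx-LPi-Lp 4, 17, 12 and 11 counts (0.0394, 0.192, 0.156 and 0.0916 FPKM). The 5/6 Nx-HPi-Lp libraries held 42, 501, 221 and 70 counts, or 0.481, 1.59, 0.865 and 0.802 FPKM. These 4 aortas stood above all Sham and 5/6 Nx-LPi-Lp aortas, and 5/6 Nx-HPi-Hp replicate 2 overlapped the lowest of them. Replicates 2 and 3 of 5/6 Nx-HPi-Lp, with the most Vdr counts, were also the deepest libraries. The log2 fold change against Sham was 3.02 (SE 0.426, 95% interval 2.07 to 3.98, edgeR adjusted p = 0.000451), or 8.13-fold. At so low a level the size of the fold depends on the scale, and limma on log2(FPKM + 1) gave a difference of 0.77. By mean the order was 5/6 Nx-HPi-Lp (0.934), 5/6 Nx-HPi-Hp (0.247), 5/6 Nx-LPi-Lp (0.120) and Sham (0.113), and no 2 neighbours in it differed past the threshold.

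Read by comparison, nephrectomy on the shared HPi-Lp diet was accompanied by a change in each member. With 5/6 Nx-HPi-Lp set against Sham, 5 of 5 members passed, where 42.9% of the 16513 genes tested did. Of the members 2 were higher (Slc20a1 and Vdr) and 3 lower (Slc20a2, Xpr1 and Fgfr1), beside 22.7% of all genes higher and 20.2% lower. With a change of at least 2-fold asked as well, 4 of 5 members passed, all but Fgfr1, beside 22.2% of genes. The median log2 fold change was -0.29 over the 5 members and -0.0027 over all genes tested. Scaling by total counts alone shifted the median of all genes in this comparison by -0.14 and lowered the share of higher calls from 52.9% to 40.7%, and it left the direction of all 5 members as given.

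Between the low and high protein diets no member passed the test. With 5/6 Nx-HPi-Lp set against 5/6 Nx-HPi-Hp, 0 of 5 members passed edgeR's test, where 13.0% of 16198 genes did (7.09% higher, 5.95% lower, and 8.12% with a change of at least 2-fold). At an unadjusted p under 0.05 there were 2, Slc20a2 with a log2 fold change of -0.56 (SE 0.205, 95% interval -1.02 to -0.11, adjusted p = 0.0964) and Vdr with 1.93 (SE 0.621, interval 0.55 to 3.31, adjusted p = 0.0676). DESeq2 called 1 member, Vdr (adjusted p = 0.0116). A fit of all 16 libraries called Vdr and Slc20a2 (adjusted p = 0.0213 and 0.0262), and without 5/6 Nx-HPi-Hp replicate 2, the replicate with the highest Vdr level of its group, Vdr passed at 2.55 (adjusted p = 0.0489). Every 5/6 Nx-HPi-Lp aorta nonetheless had less Slc20a2 than every 5/6 Nx-HPi-Hp aorta. For Slc20a1 the difference was 0.14 (interval -0.44 to 0.71), for Xpr1 -0.020 (interval -0.75 to 0.71) and for Fgfr1 -0.20 (interval -0.56 to 0.17). The value for Xpr1 turned on 5/6 Nx-HPi-Hp replicate 4, without which it was 0.45 (adjusted p = 0.148).

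Lower dietary phosphorus was accompanied by a difference in both importers and in Vdr. With 5/6 Nx-HPi-Lp set against 5/6 Nx-LPi-Lp, 3 of 5 members passed, where 20.1% of 16253 genes did (11.1% higher, 8.96% lower, and 11.9% with a change of at least 2-fold). Slc20a1 was higher on the high phosphorus diet by a log2 fold change of 0.68 (SE 0.171, edgeR adjusted p = 0.0237), or 1.60-fold, with no overlap between the groups. That call was lost without 5/6 Nx-HPi-Lp replicate 4 or 5/6 Nx-LPi-Lp replicate 1 or 3 (adjusted p = 0.0737, 0.0673 and 0.0697), where the value ran from 0.58 to 0.65. Slc20a2 was lower by -0.86 (SE 0.134, edgeR adjusted p = 0.00393), and Vdr was higher by 2.98 (SE 0.557, edgeR adjusted p = 0.00786), again without overlap. Vdr was the 1 member that also changed at least 2-fold. Xpr1 differed by -0.31 (interval -0.80 to 0.18) and Fgfr1 by 0.10 (interval -0.27 to 0.46), and neither passed.

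The other 2 nephrectomized groups were set against the same Sham aortas. In 5/6 Nx-HPi-Hp 3 of 5 members passed, beside 31.4% of genes: Slc20a1 at 0.93 (SE 0.249, edgeR adjusted p = 0.0213), Slc20a2 at -0.65 (SE 0.192, edgeR adjusted p = 0.0303) and Xpr1. The call for Slc20a1 was lost without Sham replicate 1, 2 or 3 (adjusted p = 0.056, 0.0708 and 0.0632). The call for Slc20a2 was lost without any of Sham replicates 1, 2 and 4 or 5/6 Nx-HPi-Hp replicates 1, 2 and 3 (adjusted p from 0.0553 to 0.07). In 5/6 Nx-LPi-Lp 1 of 5 passed, Xpr1, beside 31.8% of genes, while Slc20a1 stood at 0.42 (adjusted p = 0.0823), Slc20a2 at -0.33 (adjusted p = 0.0615), Fgfr1 at -0.34 (adjusted p = 0.107) and Vdr at 0.086 (adjusted p = 0.909). Scaling by total counts shifted the median of all genes by -0.21 and -0.24 in these comparisons, lowered the share of higher calls from 55.9% to 34% and from 54.4% to 26.5%, turned the Vdr value of 5/6 Nx-LPi-Lp to -0.15 and brought Slc20a2 and Fgfr1 past the threshold there at -0.56 and -0.58. Between the 5/6 Nx-HPi-Hp group and the 5/6 Nx-LPi-Lp group 0 of 5 members passed under edgeR, DESeq2 or any other setting tried, 0 had an unadjusted p under 0.05, and edgeR called 0.00% of 15850 genes, with 1420 at an unadjusted p under 0.05 and 88 called by DESeq2.

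**Figure D2:**
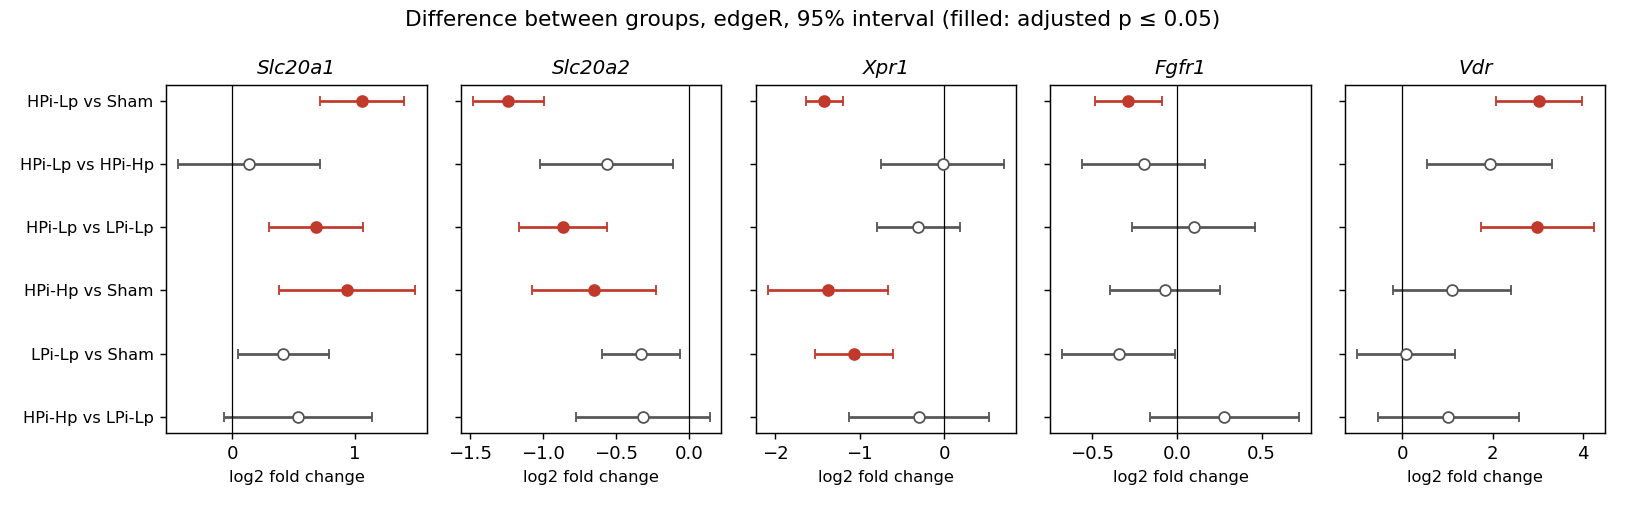
Log2 fold change (x axis, a scale of its own for each gene) of each member in 6 comparisons (y axis, first group minus second), with 95% intervals from edgeR and filled points where the adjusted p was at most 0.05. All 5 points are filled for 5/6 Nx-HPi-Lp against Sham, and no point is filled for 5/6 Nx-HPi-Lp against 5/6 Nx-HPi-Hp.

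The balance of the transporters was compared within each aorta, as the ratio of FPKM values. Slc20a1 to Slc20a2 stood at 0.330, 0.285, 0.327 and 0.402 in Sham, at 1.73, 1.39, 1.44 and 2.04 in 5/6 Nx-HPi-Lp, at 0.750, 2.03, 1.27 and 0.489 in 5/6 Nx-HPi-Hp, and at 0.632, 0.554, 0.420 and 0.649 in 5/6 Nx-LPi-Lp. Sham aortas thus had the lowest 4 values, and every aorta above 1 came from a mouse on the 2% phosphorus diet after nephrectomy. On the log2 scale the ratio was higher in 5/6 Nx-HPi-Lp than in Sham by 2.29 and than in 5/6 Nx-LPi-Lp by 1.55, and it was higher than Sham by 1.56 in 5/6 Nx-HPi-Hp and by 0.74 in 5/6 Nx-LPi-Lp. In each of these comparisons the groups did not overlap, and the exact two-sided permutation test gave p = 0.0286, the smallest it allows with 4 against 4, and 0.049 after adjustment over the 12 ratio tests. Against 5/6 Nx-HPi-Hp the difference was 0.73 (exact permutation p = 0.2, adjusted 0.267), with 5/6 Nx-HPi-Hp replicate 2 at the level of the highest 5/6 Nx-HPi-Lp aorta.

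The ratio of exporter to importers, Xpr1 to the sum of Slc20a1 and Slc20a2, was 0.318, 0.326, 0.342 and 0.309 in Sham and 0.141, 0.138, 0.166 and 0.133 in 5/6 Nx-HPi-Lp. It was 0.130, 0.0819, 0.0764 and 0.227 in 5/6 Nx-HPi-Hp and 0.149, 0.103, 0.209 and 0.201 in 5/6 Nx-LPi-Lp. All 12 nephrectomized aortas fell below the lowest Sham aorta. The log2 difference from Sham was -1.17 in 5/6 Nx-HPi-Lp, -1.47 in 5/6 Nx-HPi-Hp and -1.02 in 5/6 Nx-LPi-Lp, each with an exact permutation p = 0.0286 and 0.049 after adjustment. Among the nephrectomized groups the differences ran from -0.45 to 0.30 and did not pass (adjusted p from 0.374 to 0.6, exact permutation test).

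**Figure D3:**
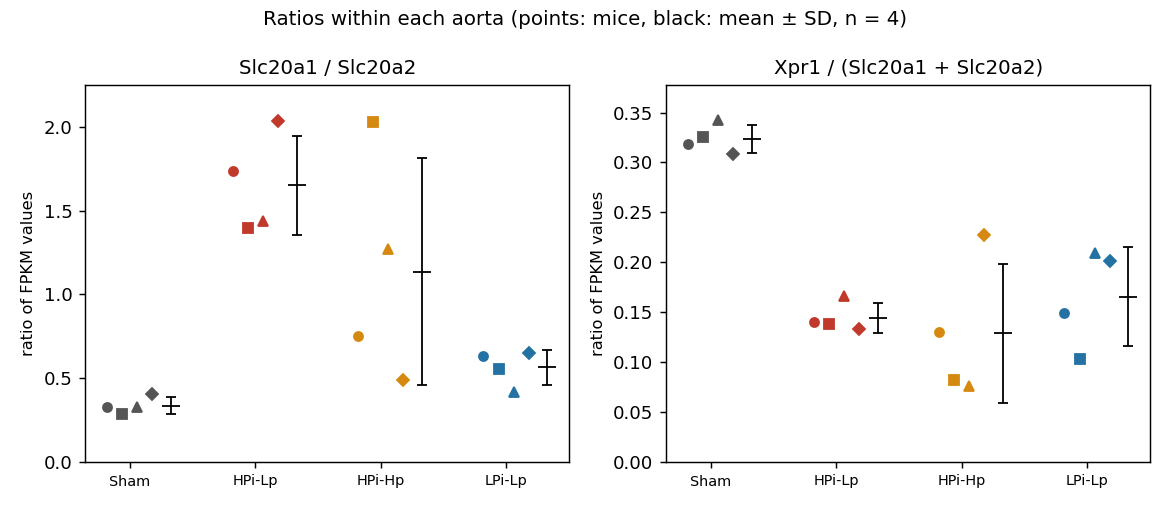
Ratio of FPKM values within each aorta (linear y axis from 0) by group (x axis), for Slc20a1 over Slc20a2 on the left and Xpr1 over the sum of both importers on the right, with points for mice and bars for the mean ± SD of 4. The 4 Sham aortas are lowest on the left (0.285 to 0.402) and highest on the right (0.309 to 0.342).

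Markers of several cell types moved with the same groups. The summed FPKM of the 7 smooth muscle markers was 7882 to 9939 in Sham, 848 to 1957 in 5/6 Nx-HPi-Lp, 2187 to 8737 in 5/6 Nx-HPi-Hp and 2732 to 6560 in 5/6 Nx-LPi-Lp. Of these genes, 7 of 7 passed as lower in 5/6 Nx-HPi-Lp against Sham, beside 20.2% of all genes. Against 5/6 Nx-HPi-Hp 5 of 7 passed as lower, beside 5.95%, and against 5/6 Nx-LPi-Lp 6 of 7, beside 8.96%. Replicate 4 of 5/6 Nx-HPi-Hp, which had the highest Xpr1 (5.16) and Slc20a2 (15.3) of its group, also had its highest smooth muscle sum (8737), inside the Sham range. The 7 macrophage markers summed to 146 to 227 in Sham, 495 to 1825 in 5/6 Nx-HPi-Lp, 221 to 456 in 5/6 Nx-HPi-Hp and 148 to 266 in 5/6 Nx-LPi-Lp, with 7, 6 and 7 of 7 genes higher in 5/6 Nx-HPi-Lp than in Sham, than in 5/6 Nx-HPi-Hp and than in 5/6 Nx-LPi-Lp. Replicate 2 of 5/6 Nx-HPi-Lp had both the highest macrophage sum (1825) and the highest Vdr level (1.59) of all 16 aortas, and also the highest fibroblast sum (2371). In 5/6 Nx-HPi-Hp the highest macrophage sum was in replicate 1 (456, with Vdr at 0.227 FPKM). The highest Vdr level of that group was in replicate 2 (0.526 FPKM, with a macrophage sum of 364).

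**Figure D4:**
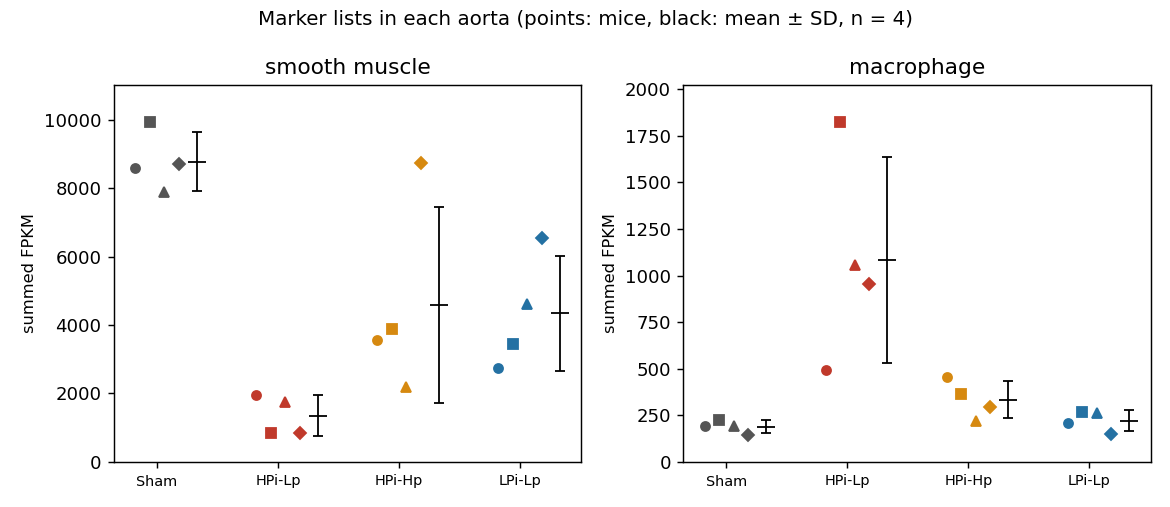
Summed FPKM (linear y axis from 0) of 7 smooth muscle markers on the left and 7 macrophage markers on the right, by group (x axis), with points for mice and bars for the mean ± SD of 4. The 5/6 Nx-HPi-Lp aortas are lowest on the left (848 to 1957) and highest on the right (495 to 1825), and 1 aorta of 5/6 Nx-HPi-Hp (8737) lies among Sham on the left.

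The 6 white adipocyte markers summed to 136 to 380 in Sham, 1074 to 1824 in 5/6 Nx-HPi-Lp, 332 to 2352 in 5/6 Nx-HPi-Hp and 782 to 2247 in 5/6 Nx-LPi-Lp. Of these, 5 of 6 passed as higher in 5/6 Nx-HPi-Lp against Sham, beside 22.7% of all genes. The 6 fibroblast markers summed to 344 to 553 in Sham, 595 to 2371 in 5/6 Nx-HPi-Lp, 246 to 532 in 5/6 Nx-HPi-Hp and 248 to 345 in 5/6 Nx-LPi-Lp. Of these, 3 of 6 passed as higher in 5/6 Nx-HPi-Lp against Sham, and Pi16 and Pdgfra overlapped Sham. Col1a1 alone was 239 to 1425 FPKM in 5/6 Nx-HPi-Lp and 89.4 to 154 FPKM in Sham. The 6 sympathetic neuron markers varied widely between aortas. They summed to 592, 15.3, 94.8 and 480.3 in 5/6 Nx-HPi-Lp, 4.05 to 97.96 in 5/6 Nx-HPi-Hp, 2.24 to 54.2 in 5/6 Nx-LPi-Lp and 2.19 to 3.53 in Sham. Dbh was listed at 0 in 3 of 16 aortas, which came from Sham, 5/6 Nx-HPi-Lp and 5/6 Nx-LPi-Lp. The 6 heart muscle markers set single libraries apart, at 2390 in 5/6 Nx-LPi-Lp replicate 2, 401 in 5/6 Nx-HPi-Hp replicate 1 and 209 in 5/6 Nx-HPi-Hp replicate 2, beside 5.30 to 42.2 in the other 13 aortas. None of the markers of these 4 cell types was at 0 in every library. The 6 endothelial markers summed to 82.8 to 149.97 over all groups, but single genes moved in opposite directions. Against Sham 2 of 6 passed as higher in 5/6 Nx-HPi-Lp and 1 as lower, beside 22.7% and 20.2% of all genes. Cdh5 was 27.2 to 48.3 FPKM in 5/6 Nx-HPi-Lp and 10.9 to 17.6 FPKM in Sham. Kdr was 3.68 to 10.9 and 1.34 to 2.04 FPKM, and Pecam1 was 44.0 to 51.0 and 54.0 to 80.4 FPKM. The 6 kidney tubule markers summed to 5.62 to 18.0 in 5/6 Nx-HPi-Lp and 0.551 to 2.71 in the other groups. This sum was mostly Aqp2, at 5.49 to 17.8 FPKM in 5/6 Nx-HPi-Lp, and Slc34a1 and Umod were at 0 in all 16 libraries. Cdh16 went the other way, at 0 to 0.0682 FPKM in 5/6 Nx-HPi-Lp and 0.227 to 0.737 FPKM in Sham. Of 3 tubule markers tested against Sham, 1 passed as higher and 1 as lower, beside 22.7% and 20.2% of all genes. The part of these cell types in the values of the 5 genes was not tested.

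The genes around the 5 members were read from lists of 67 further genes of Pi transport, FGF23 and FGF signaling, vitamin D and PTH. Of these 47 had enough counts in 5/6 Nx-HPi-Lp and Sham, and 18 passed (8 higher, 10 lower), beside 42.9% of all genes. Against 5/6 Nx-HPi-Hp 8 of 45 passed (5 higher, 3 lower), beside 13.0%, and against 5/6 Nx-LPi-Lp 15 of 45 (6 higher, 9 lower), beside 20.1%. The median log2 fold change of the lists was 0.015, 0.077 and -0.071 in the 3 comparisons, and that of all genes -0.0027, 0.0098 and -0.016.

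Among other phosphate transporters 1 of 8 could be tested, the mitochondrial carrier Slc25a3, and it did not pass (log2 fold change 0.20 against Sham, edgeR adjusted p = 0.0988). Slc34a1, the main importer of the kidney proximal tubule, was listed at 0 in all 16 libraries. Kidins220 encodes a partner of the exporter, and 5 inositol pyrophosphate kinases make the signal that the exporter reads. Of these 6 genes, 2 were lower than in Sham, beside 20.2% of all genes. These were Kidins220 (-0.97, edgeR adjusted p = 5.29e-05) and Ppip5k1 (-0.44, edgeR adjusted p = 0.0276), and both were also lower than in 5/6 Nx-LPi-Lp (-0.56 and -0.99, edgeR adjusted p = 0.0243 and 0.0159). Both were named after their values were seen. The call for Ppip5k1 against Sham was lost in 8 of 19 alternatives, 6 of them with 1 library left out (Sham replicate 1, 2 or 4, or 5/6 Nx-HPi-Lp replicate 1, 2 or 4, adjusted p from 0.0549 to 0.0745). The call for Kidins220 against 5/6 Nx-LPi-Lp was lost in 6 of 19, which include leaving out 5/6 Nx-HPi-Lp replicate 2 or 4 or 5/6 Nx-LPi-Lp replicate 3 or 4 (adjusted p from 0.054 to 0.0814).

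On the FGF23 side, the ligand and its coreceptor did not have counts in enough libraries for edgeR's filter and were not tested. Fgf23 held 0, 98, 125 and 20 counts in the 5/6 Nx-HPi-Lp libraries. Fgf23 was listed at 0, 0.967, 1.52 and 0.714 FPKM in 5/6 Nx-HPi-Lp and at no more than 0.105 FPKM in any other aorta, so 3 of the 4 mice of that group stood apart and 1 did not. Kl, the klotho coreceptor, was at most 0.0763 FPKM anywhere and was listed at 0 in 3 of the 4 5/6 Nx-HPi-Lp aortas. Of the genes that make or process FGF23, 3 of 6 were tested and 2 were lower than in Sham, beside 20.2% of all genes. Phex, whose loss raises FGF23, was at 0.308, 0.330, 0.243 and 0.288 FPKM against 1.10, 1.08, 1.15 and 1.22 FPKM in Sham (log2 fold change -1.99, edgeR adjusted p = 0.000102).

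Of the coreceptors and other FGF receptors, 1 rose and 2 fell against Sham of the 5 tested, beside 22.7% and 20.2% of all genes. Klb, the coreceptor for the endocrine factors FGF15 and FGF21, was 0.218, 0.551, 0.331 and 0.395 FPKM in Sham and 2.19, 2.08, 2.18 and 3.35 FPKM in 5/6 Nx-HPi-Lp (log2 fold change 2.68, edgeR adjusted p = 0.000162). Klb did not pass against 5/6 Nx-HPi-Hp (0.42 to 0.76 over the alternatives) or 5/6 Nx-LPi-Lp (-0.0032 to 0.64). Against Sham, Fgfr2 fell by 1.61 and Fgfrl1, a receptor that lacks the kinase domain, fell by 1.13 on the log2 scale (edgeR adjusted p = 0.000615 and 3.96e-05). Both were lower than in 5/6 Nx-LPi-Lp too (-0.91 and -0.70, edgeR adjusted p = 0.0404 and 0.013), and Fgfrl1 was lower than in 5/6 Nx-HPi-Hp (-0.71, edgeR adjusted p = 0.0207). The call for Fgfr2 against 5/6 Nx-LPi-Lp was lost in 6 of 19 alternatives, among them leaving out 5/6 Nx-HPi-Lp replicate 2 or 4 or 5/6 Nx-LPi-Lp replicate 3 or 4 (adjusted p from 0.0883 to 0.104). The call for Fgfrl1 against 5/6 Nx-HPi-Hp was lost in 4 of 19, among them scaling by total counts (adjusted p = 0.0532) and leaving out 5/6 Nx-HPi-Lp replicate 3 or 4 (adjusted p = 0.0532 and 0.0682). Replicate 4 of 5/6 Nx-HPi-Hp again stood apart in Fgfr2, at 11.5 FPKM beside 4.05 to 5.33 FPKM in the other 3 aortas.

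Among 7 other FGF ligands tested, 2 were higher than in Sham, Fgf18 (1.37, edgeR adjusted p = 0.0157) and Fgf10 (2.80, edgeR adjusted p = 0.00328, named after its values were seen), and Fgf1 was lower (-1.10, edgeR adjusted p = 0.00924). Of all genes in that comparison 22.7% were higher and 20.2% lower. The call for Fgf18 was lost in the fit of all 16 libraries (adjusted p = 0.069) and without Sham replicate 1 or 4 (adjusted p = 0.055 and 0.0523). Fgf7, a ligand made by mesenchymal cells, was higher than in 5/6 Nx-LPi-Lp (1.81, edgeR adjusted p = 0.0126), a call lost by limma without a filter (adjusted p = 0.0539). Downstream of the receptors, 11 adaptors and feedback genes were tested. Against Sham 3 were higher and 2 lower, beside 22.7% and 20.2% of all genes. Against 5/6 Nx-HPi-Hp 4 were higher, beside 7.09% of all genes. Against 5/6 Nx-LPi-Lp 4 were higher and 1 lower, beside 11.1% and 8.96%. Dusp6, the phosphatase that turns off ERK, was 19.0, 21.1, 18.8 and 19.1 FPKM in 5/6 Nx-HPi-Lp, against 10.8, 6.39, 8.88 and 9.14 FPKM in Sham and 11.1, 9.62, 9.04 and 6.71 FPKM in 5/6 Nx-HPi-Hp. It was above every aorta of both groups (log2 fold change 1.12 and 1.10, edgeR adjusted p = 0.000346 and 0.00497). Against 5/6 Nx-LPi-Lp Dusp6 did not pass, and the value ran from 0.34 to 0.86 over the alternatives. Replicate 1 of 5/6 Nx-LPi-Lp held 1217 Dusp6 counts, beside 382, 588 and 670 in replicates 2, 3 and 4. Only without that replicate did Dusp6 pass there (edgeR adjusted p = 0.0224). Etv4, a transcription factor induced by FGF signaling, was higher than in Sham by 3.01 and than in 5/6 Nx-LPi-Lp by 1.38 (edgeR adjusted p = 5.29e-05 and 0.00369). It did not pass against 5/6 Nx-HPi-Hp, where the value ran from 0.28 to 1.07 over the alternatives. Spred1, an inhibitor of the same cascade, was higher than in 5/6 Nx-HPi-Hp by 1.14 and than in 5/6 Nx-LPi-Lp by 0.72 (edgeR adjusted p = 0.0148 and 0.0306). The first of these calls was lost without 5/6 Nx-HPi-Hp replicate 2 (adjusted p = 0.0545). The second was lost in 8 of 19 alternatives, among them leaving out replicate 2, 3 or 4 of either group (adjusted p from 0.0512 to 0.0698). Against Sham Spred1 did not pass, except without 5/6 Nx-HPi-Lp replicate 1 (0.50, edgeR adjusted p = 0.00442).

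**Figure D5:**
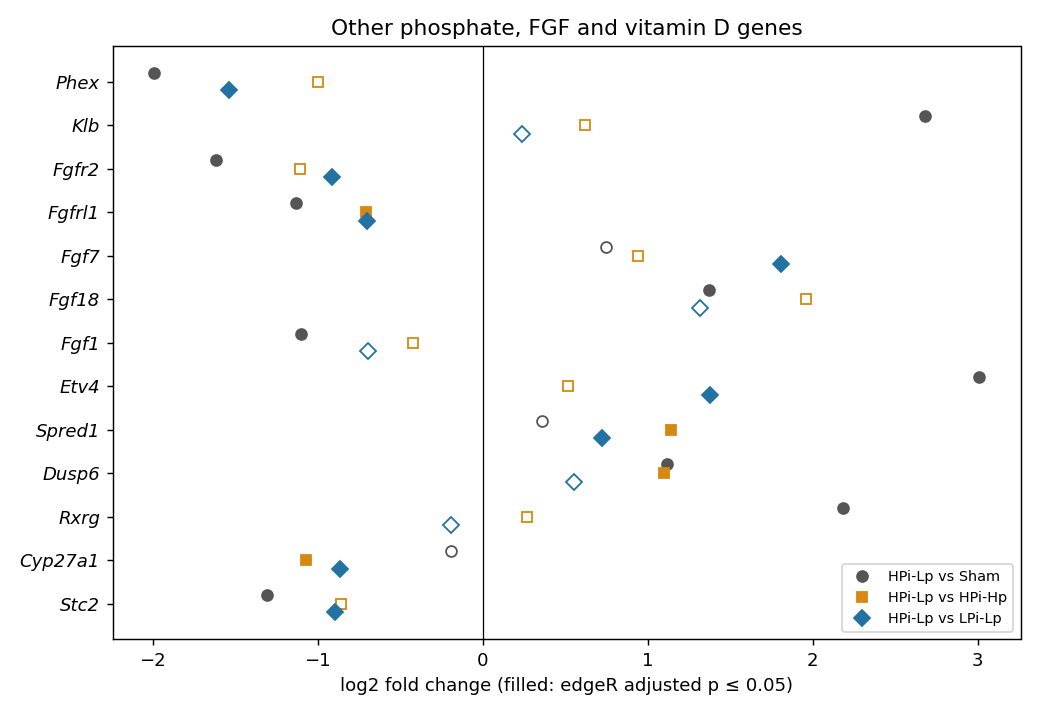
Log2 fold change (x axis) of 13 genes of the Pi, FGF, vitamin D and PTH lists (y axis) in 5/6 Nx-HPi-Lp against Sham (circles), 5/6 Nx-HPi-Hp (squares) and 5/6 Nx-LPi-Lp (diamonds), filled where the edgeR adjusted p was at most 0.05. Etv4, Klb and Rxrg lie furthest right and Phex furthest left, each against Sham.

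On the vitamin D side, the partner receptors were present throughout. Rxra averaged 19.4 ± 1.26 FPKM in Sham and 20.8 ± 4.27 FPKM in 5/6 Nx-HPi-Lp (log2 fold change 0.072, edgeR adjusted p = 0.72, with a sign that turned to -0.062 under scaling by total counts). Rxrg rose against Sham from 1.12 ± 0.222 to 5.22 ± 1.46 FPKM (log2 fold change 2.18, edgeR adjusted p = 0.000184) and did not pass against the other groups. Cyp27a1, a sterol hydroxylase that can make 25-hydroxyvitamin D, was 19.8, 17.9, 21.4 and 22.4 FPKM in Sham. It was 22.8, 19.2, 13.1 and 17.6 FPKM in 5/6 Nx-HPi-Lp, below 36.4, 55.4, 33.7 and 27.6 FPKM in 5/6 Nx-HPi-Hp and 40.7, 34.1, 28.8 and 28.9 FPKM in 5/6 Nx-LPi-Lp. No aorta overlapped in either of these comparisons (log2 fold change -1.07 and -0.87, edgeR adjusted p = 0.0202 and 0.0125), and leaving out replicate 4 of 5/6 Nx-HPi-Lp ended the first call (adjusted p = 0.064). The 5/6 Nx-HPi-Lp and Sham aortas overlapped (log2 fold change -0.19, edgeR adjusted p = 0.357), whereas Cyp27a1 was higher than in Sham by 0.90 in 5/6 Nx-HPi-Hp (edgeR adjusted p = 0.0119) and by 0.71 in 5/6 Nx-LPi-Lp (edgeR adjusted p = 0.00425). Cyp24a1, the catabolic enzyme that vitamin D receptor signaling induces most directly, was at most 0.101 FPKM in any aorta and was not tested. Of 6 vitamin D targets, 2 could be tested against Sham and only 1 in each of the other comparisons of 5/6 Nx-HPi-Lp. That 1 was the calcium pump Atp2b1, which passed in all 3 comparisons (0.60, 0.67 and 0.68, named after its values were seen). Of all genes 42.9%, 13.0% and 20.1% passed in them. Leaving out replicate 4 of 5/6 Nx-HPi-Lp ended the Atp2b1 call against 5/6 Nx-HPi-Hp (adjusted p = 0.0585).

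Of the PTH and calcium sensing list, 4 of 7 genes were tested, and Stc2, a stanniocalcin, was lower than in Sham by a log2 fold change of -1.31 (edgeR adjusted p = 0.00145) and than in 5/6 Nx-LPi-Lp by -0.89 (edgeR adjusted p = 0.0384). The second call was lost in 13 of 19 alternatives (adjusted p from 0.0509 to 0.146), among them scaling by total counts and leaving out 5/6 Nx-HPi-Lp replicate 2, 3 or 4 or any 1 library of 5/6 Nx-LPi-Lp. The list's median against Sham was nonetheless 0.67, since the other 3 genes had positive values that did not pass.

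The genes whose levels ran most like each member over the 16 aortas were found by the root mean square (RMS) difference of log2(FPKM + 1), each gene centred on its own mean, among 13423 protein-coding genes. Slc20a1 was nearest to Rasa4, Cyp4f16 and Cars, at RMS differences of 0.19, 0.20 and 0.20, where the median gene stood at 0.56. Slc20a2 was nearest to Slc48a1, Rnf187 and Ctnna3 (0.13, 0.13 and 0.15, median 0.52). Xpr1 was nearest to Sh3bgrl, Coro1c and Calm3 (0.11, 0.11 and 0.14, median 0.62), which fell from 154, 17.7 and 160 FPKM in Sham to 66.2, 7.89 and 83.0 FPKM in 5/6 Nx-HPi-Lp. Fgfr1 was nearest to Atxn7l3, Copg1 and Pml (0.089, 0.095 and 0.099, median 0.35), and Vdr to Man2b1, Gm21188 and Samhd1 (0.095, 0.11 and 0.12, median 0.46). Rasa4, Cyp4f16 and Cars were, like Slc20a1, at least as high on average in 5/6 Nx-HPi-Hp (12.3, 9.09 and 8.68 FPKM) as in 5/6 Nx-LPi-Lp (7.35, 7.18 and 6.41 FPKM). These likenesses describe 16 libraries that share the group structure and carry no test.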

How the data were processed

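Bulk poly(A) RNA-seq libraries of 16 mouse aortas were used. Per the labels, featureCounts 1.5.0-p3 made the gene counts on mm10, and per the study's methods reads were aligned with HISAT2. The deposited tables hold raw counts and FPKM, and the deposited FPKM values equal counts per kilobase of exon scaled by the authors with DESeq2 size factors. Multimapping and strand settings are not given in the sources used here. Groups and animal numbers came from the labels, and no 2 libraries agreed within sampling noise (at least 21.9 chi-square per gene between replicates). Each comparison was fitted to its own 8 libraries with edgeR 4.0.16 (filterByExpr, TMM, quasi-likelihood test, Benjamini-Hochberg adjustment) in R 4.3.3. DESeq2 1.42.0, limma 3.58.1 (pseudocounts 1 and 0.1, mean FPKM above 0.5), other scalings and filters, a block, and leaving out each library were alternatives, and the code was tested on simulated data. Ratios used exact permutation tests in scipy 1.17.1. Promoter sequences came from RefSeq (GRCm38.p6), for 3 of the 5 members, with bases inside annotated exons of the gene left out.

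All 5 members are named in every comparison. Listed genes are named where they passed with at least a 2-fold change in a comparison of 5/6 Nx-HPi-Lp and a group mean of at least 1 FPKM, up to 3 per list, together with Kl, Fgf23, Cyp24a1, Rxra and Slc34a1. The members and lists were chosen with earlier results of these data known. Counts set the precision of low genes such as Vdr.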

Additional observations from a re-analysis of the deposited data

Results flagged for a closer look

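In 5 of the 92 groups of 4 values examined, 1 aorta lay far from the other 3, where chance alone gives about 1 in 20. Among the members this was Xpr1 in Sham replicate 3, at 6.84 FPKM beside 7.60 to 7.63 FPKM in the other Sham aortas, still above every nephrectomized aorta. In 5/6 Nx-HPi-Lp, Klb in replicate 4 was 3.35 FPKM beside 2.08 to 2.19 FPKM, and Dusp6 in replicate 2 was 21.1 FPKM beside 18.8 to 19.1 FPKM. Rxrg in 5/6 Nx-LPi-Lp replicate 4 was 2.79 FPKM beside 6.78 to 7.30 FPKM. Pth, the parathyroid hormone gene, was 2.00 FPKM in 5/6 Nx-HPi-Lp replicate 1 and was listed at 0 in the other 15 aortas, and it was named after its values were seen.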

How the results depend on the processing

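Against Sham, Slc20a1, Slc20a2, Xpr1 and Vdr kept direction and call in 5/6 Nx-HPi-Lp under all alternatives run. Fgfr1 missed the threshold with all 16 libraries in one fit (-0.24) and with the replicate block (-0.28), and ran from -0.34 to -0.25 with 1 library left out. Against 5/6 Nx-HPi-Hp, DESeq2 called 1 member and the fit of all libraries 2, and 0 to 1 passed with 1 library left out. There Slc20a2 was -0.53 and Vdr 1.97 in the fit of all libraries, and Vdr 1.92 by DESeq2 and 1.56 to 2.55 with 1 library left out. Xpr1, near 0, was 0.017 in the fit of all libraries, 0.15 with the block, 0.076, 0.13 and 0.076 by limma with pseudocounts 1, 0.1 and 1 without a filter, and -0.26 to 0.45 with 1 library left out. Slc20a1 ran from -0.0092 to 0.43. DESeq2 called 16 listed genes there in place of 8. Against 5/6 Nx-LPi-Lp, Slc20a1 was 0.63 by limma without a filter and 0.58 to 0.82 with 1 library left out, Fgfr1 -0.019 to 0.27 and Klb -0.0032 to 0.64.

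In 5/6 Nx-HPi-Hp against Sham, limma without a filter called 1 member, and 1 to 3 passed with 1 library left out. In 5/6 Nx-LPi-Lp against Sham, 3 passed with total counts, 2 each by DESeq2 and by limma with either pseudocount, and 1 to 2 with 1 library left out, while Vdr was -0.15 with total counts, -0.010 with the block and -0.25 to 0.38 with 1 library left out. Rxra was -0.062 against Sham with total counts, and -0.023 to 0.19 there and -0.17 to 0.034 against 5/6 Nx-HPi-Hp with 1 library left out. The cause of these changes was not tested. Ratio differences kept direction and call under the alternatives with a test, which were FPKM + 1 in each term and counts in place of FPKM. For Slc20a1 to Slc20a2, counts differ from FPKM by 1 fixed factor in every library, so that alternative could not change the result. With 1 library left out no test of the ratios was run. Animal numbers did not pair the libraries: correlations of same-numbered deviations ran from -0.20 to 0.40, and no comparison had all 4 pairs over 0.1. In 5/6 Nx-HPi-Lp against Sham 4 of 8 libraries correlated best with their own number, and 0 to 2 of 8 did in each other comparison. The replicate block lowered the genes called from 2113 to 384 against 5/6 Nx-HPi-Hp, from 3262 to 1720 against 5/6 Nx-LPi-Lp and from 4990 to 3062 in 5/6 Nx-HPi-Hp against Sham. It also ended calls of Atp2b1, Cyp27a1, Fgf7, Fgfr2, Fgfrl1, Kidins220, Phex, Ppip5k1, Spred1 and Stc2 between nephrectomized groups and that of Slc20a1 in 5/6 Nx-HPi-Hp against Sham. Over all genes, counts of calls against 5/6 Nx-HPi-Hp went from 2113 to 3407 by DESeq2, 4417 with all libraries and 850 by limma without a filter. Against 5/6 Nx-LPi-Lp limma without a filter called 1654, and in comparisons with Sham it called 1909 (5/6 Nx-HPi-Hp) and 3304 (5/6 Nx-LPi-Lp), while the fit of all libraries called 3030 in 5/6 Nx-LPi-Lp. With 1 library left out these counts fell as low as 739 against 5/6 Nx-HPi-Hp (without 5/6 Nx-HPi-Lp replicate 4) and 1736 against 5/6 Nx-LPi-Lp (without its replicate 3), and against Sham as low as 2070 in 5/6 Nx-HPi-Hp and 3192 in 5/6 Nx-LPi-Lp (both without Sham replicate 2). Between the last 2 groups, 12 genes passed without a count filter and 10 with the block. Vdr rests on 4 to 35 counts in 12 libraries, which limits its fold change.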
